A study of Mus musculus with 2 samples.

Results

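The Ikaros family genes Ikzf1, Ikzf2, Ikzf3, Ikzf4 and Ikzf5 were examined for STARR-seq regions in activated mouse T helper 1 (Th1) cells. A region of the authors' table was given to a gene when the protein-coding transcription start nearest to the region's centre, within 100 kb, belonged to that gene in the GENCODE M21 basic annotation. By this rule 4 of 14973 listed regions on chromosomes 1 to 19, X and Y belonged to the family: 1 each to Ikzf1, Ikzf2, Ikzf4 and Ikzf5, and 0 to Ikzf3. No further region had a family start as its nearest beyond 100 kb. Over the whole table, 43.0% of 21862 protein-coding genes were given at least 1 region, and 30.1% had a listed region within 1000 bp of their own start, as Ikzf2, Ikzf4 and Ikzf5 did. The genes were chosen by measured values, namely the listing of their regions and the deposited effect of the Ikzf2 promoter, so the counts, effects and ranks that follow are descriptions with no test.

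In STARR-seq, genomic fragments are cloned into a reporter plasmid so that a fragment with enhancer activity is transcribed itself, and RNA output is compared with DNA input. Both output libraries came from primary C57BL/6NJ Th1 cells transfected transiently with the reporters on an episome. Per the labels, every culture had interleukin-2, interleukin-12 p70 and an antibody to interleukin-4 for 4 days, and antibodies to CD3e and CD28 for 3 days. The legible doses were 10 ng/mL of each interleukin (replicate 1), 2 ug/mL anti-interleukin-4 and 1 ug/mL anti-CD28 (replicate 2) and 0.25 ug/mL anti-CD3e (both). There was 1 group of 2 biological replicates with the same donor identifier. The deposited table combined both libraries, which leaves every value without a replicate spread, at unknown read depth, and with the deposited p-value as the one guide to its precision. Age and sex of the mice are given as unknown or not collected. No RNA level of any gene was measured, so the Th1 label could not be checked against marker genes.

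Ikaros proteins are zinc finger transcription factors of lymphocytes. Fingers in the amino-terminal part bind DNA, and a pair at the carboxy terminus joins family members into dimers. Several members recruit the NuRD chromatin remodelling and deacetylase complex, and several are destroyed by the cereblon ubiquitin ligase in the presence of imide drugs. Ikzf1 (Ikaros) is needed for lymphoid development, Ikzf2 (Helios) is best known in regulatory T cells, Ikzf3 (Aiolos) in B cells and activated T cells, and Ikzf4 (Eos) as a partner of Foxp3. Ikzf5 (Pegasus) is the most divergent member.

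The sequences of the listed regions are shown first, because they differ in GC and CpG content, from the CpG-rich Ikzf2 and Ikzf5 to the CpG-poor Ikzf4 and Ikzf1. Sequences are given on each gene's strand, 5′ to 3′, from the GRCm38 assembly, and stretches annotated as exons in GENCODE or RefSeq were left out. Capitals mark matches on either strand to any of 18 transcription factor consensus sequences.
Ikzf2, promoter, central 300 bp of the region: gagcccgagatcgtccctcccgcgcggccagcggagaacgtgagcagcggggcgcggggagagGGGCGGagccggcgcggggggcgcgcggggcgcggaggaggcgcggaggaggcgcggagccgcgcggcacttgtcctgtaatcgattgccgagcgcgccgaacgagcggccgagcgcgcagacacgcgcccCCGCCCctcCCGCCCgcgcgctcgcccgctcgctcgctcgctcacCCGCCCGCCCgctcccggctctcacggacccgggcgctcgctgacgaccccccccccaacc
Ikzf4, promoter, whole region: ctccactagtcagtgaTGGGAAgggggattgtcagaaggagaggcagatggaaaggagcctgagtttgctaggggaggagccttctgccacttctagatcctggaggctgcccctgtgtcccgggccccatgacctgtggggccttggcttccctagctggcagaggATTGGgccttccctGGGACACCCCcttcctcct
Ikzf5, intron, part of the region: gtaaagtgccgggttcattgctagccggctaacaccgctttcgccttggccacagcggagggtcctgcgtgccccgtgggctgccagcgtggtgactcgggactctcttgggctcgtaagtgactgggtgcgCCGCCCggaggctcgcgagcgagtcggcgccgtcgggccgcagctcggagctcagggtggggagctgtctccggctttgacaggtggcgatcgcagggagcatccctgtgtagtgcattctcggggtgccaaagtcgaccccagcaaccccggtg
Ikzf5, between the divergent starts of Ikzf5 and Acadsb: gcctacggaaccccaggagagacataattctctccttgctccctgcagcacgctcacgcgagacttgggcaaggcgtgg
Ikzf1, intron, whole region: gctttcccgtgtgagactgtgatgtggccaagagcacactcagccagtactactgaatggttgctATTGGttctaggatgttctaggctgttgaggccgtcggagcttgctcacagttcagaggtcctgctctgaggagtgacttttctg
These stretches lie at chr1:69687389-69687688 (Ikzf2), chr10:128646526-128646725 (Ikzf4), chr7:131410026-131410312 and chr7:131410522-131410600 (Ikzf5), and chr11:11740651-11740800 (Ikzf1). The first 4 are read from the minus strand and the last from the plus strand. The Ikzf2 stretch was 80.3% G or C and held 57 CpG dinucleotides in 300 bp. Its capitals are GGGCGG boxes of SP and KLF factors, seen as CCGCCC where they lie on the other strand. The Ikzf4 stretch was 61.0% G or C but held 1 CpG in 200 bp, and its capitals are TGGGAA (the Ikaros core, which is also the core bound by RBPJ), a match to the NFY consensus on the other strand, and an NF-kB match. The Ikzf5 intronic stretch had 28 CpG dinucleotides and 1 SP/KLF box, and the stretch between its divergent starts had 5 CpG dinucleotides and no complete match. The whole Ikzf2 and Ikzf5 regions held 7 SP/KLF boxes each, and most of those at Ikzf5 lay outside the printed stretches. The Ikzf1 stretch had 3 CpG dinucleotides and 1 NFY match.

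The Ikzf2 promoter was the family's negative region, and it had the largest absolute effect of the 4. Its effect was -1.54 in the authors' deposited table (p = 2.78e-10, adjusted p = 3.31e-08). The effects of the others were positive and smaller in size: the authors' deposited table gave 0.74 for Ikzf5 (adjusted p = 0.000262), 0.48 for Ikzf1 (adjusted p = 0.00735) and 0.44 for Ikzf4 (adjusted p = 0.0095). Neither labels nor file headers state the log base, scaling or direction of this effect. Positive and negative are therefore only its signs, and it is not stated which of output and input is higher for a positive sign. Of the family's regions 3 of 4 were positive, beside 80.7% of all listed regions. The median over the 4 regions was 0.46, and that over all listed regions was 0.73. Family regions lay at a promoter, meaning a centre within 1000 bp of an annotated start, in 3 of 4 cases, beside 52.4% of all listed regions. Of these 3, 2 were positive, beside 75.1% of 7849 listed promoter regions. The 1 distal region, that of Ikzf1, was positive, as were 86.9% of 7124 distal regions.

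**Figure D1:**
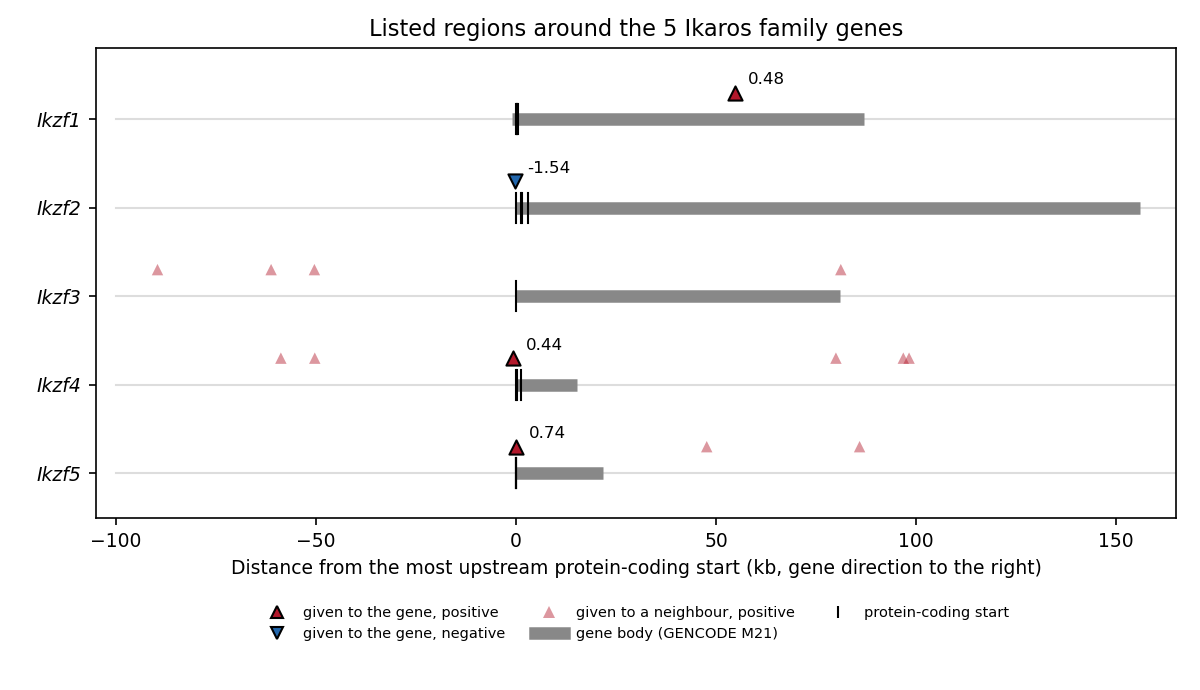
Position of listed regions (triangles) relative to the most upstream protein-coding start of each Ikaros family gene, in kb, with gene bodies as grey bars and annotated protein-coding starts as ticks. Outlined triangles are the 4 regions given to a family gene, labelled with the deposited effect, and pale triangles are the 11 regions within 100 kb of a family start that were given to other genes, all of them positive.

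The Ikzf2 region, 825 bp wide, spanned chr1:69687126-69687950 on mm10. Its centre lay 293 bp upstream of the most upstream protein-coding start of Ikzf2, which is read from the minus strand. Of the 825 bp, 120 bp were 5′ UTR of Ikzf2 (ENSMUSG00000025997.13) and 705 bp were intergenic in GENCODE M21. In RefSeq the gene begins 106 bp further upstream, and 226 bp of the region were then exonic. The region was 69.7% G or C, with 104 CpG dinucleotides and an observed over expected CpG ratio of 1.04. It thus has the composition of a CpG island, and its central 300 bp had a single copy in the genome. The other 3 protein-coding starts of Ikzf2 lay 1652 to 3381 bp from the region's centre, in sequence of 42.1% to 46.3% GC over 1 kb, and none was inside a listed region.

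The effect at Ikzf2 lay within the range of other negative regions. Among the 2890 negative regions of the authors' deposited table the median was -1.07, and 21.5% had a larger absolute effect than Ikzf2. Over all 7849 listed promoter regions, 6.75% had a lower effect. Because the share of negative promoter regions differed with GC content, as the shares given here for Ikzf2, Ikzf5 and Ikzf4 show, the region was also set beside the 1316 other promoter regions within 2.5 percentage points of its GC content. Of these, 61.6% were negative, their median effect was -0.86, and 17.7% (95% Wilson interval 15.7 to 19.9%, counting error over regions only) had a lower effect. The negative ones among them had a median of -1.22. A negative sign was therefore the more frequent one at this GC content, and the size at Ikzf2 was on the larger side. The contribution of GC content to the value at Ikzf2 was not tested. By p-value the region was among the strongest listed: 6.40% of all listed regions had a smaller p. Of 21862 protein-coding genes, 7.61% were given a negative region within 1000 bp of their own start.

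The promoter regions of like GC content whose deposited effects were closest to that of Ikzf2 belonged to Lypd6b, Atf1 and Plxna1. In the authors' deposited table their effects were -1.54 (Lypd6b), -1.54 (Atf1) and -1.54 (Plxna1), with GC contents of 69.6%, 70.2% and 71.3%. Atf1 encodes a factor that binds cyclic AMP response elements, and Plxna1 a semaphorin receptor. Likeness here is 1 deposited value in 1 table.

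**Figure D2:**
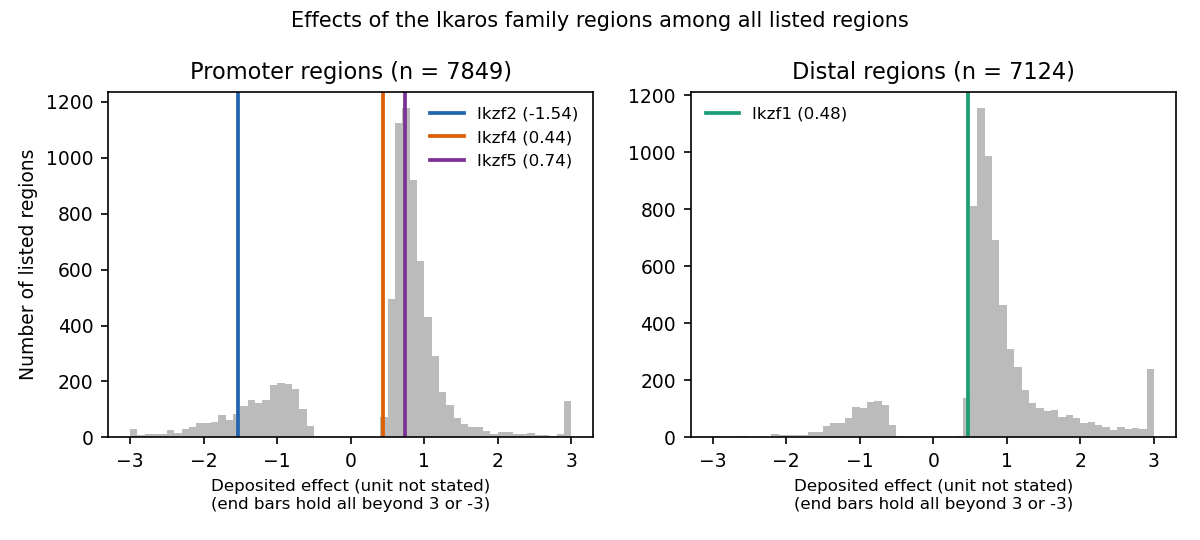
Histograms of the deposited effect for listed promoter regions (left, n = 7849) and distal regions (right, n = 7124), in bars 0.1 wide, with vertical lines at the family's regions. Ikzf2 (-1.54) lies among the negative regions, Ikzf5 (0.74) near the peak of the positive ones, and Ikzf4 (0.44) and Ikzf1 (0.48) at their lower edge. The list holds regions with an adjusted p below 0.01, and its lowest positive effect is 0.368 and its highest negative effect -0.428.

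The Ikzf5 region had an effect close to the middle of the table. The region, 850 bp wide, spanned chr7:131410026-131410875 and contained all 3 annotated protein-coding starts of Ikzf5 (ENSMUSG00000040167.16). Its effect of 0.74 in the authors' deposited table had 50.9% of all listed regions below it, and 51.5% of the 1930 other promoter regions within 2.5 points of its GC content of 65.9%. Of those, 27.8% were negative. The region also contained the start of Acadsb, a mitochondrial acyl-CoA dehydrogenase gene read in the opposite direction, whose start was 151 bp from the region's centre and 79 bp beyond the most upstream start of Ikzf5. The value therefore belongs to a divergent promoter and cannot be divided between Ikzf5 and Acadsb. In GENCODE M21, 346 bp of the region were UTR, 42 bp coding and 462 bp intronic, counted over transcripts of Ikzf5, Acadsb and Fgfr2 together. With 78 CpG dinucleotides and an observed over expected ratio of 0.846, it too was CpG-rich. The listed CpG-rich regions of Ikzf2 and Ikzf5 thus had opposite signs, at 69.7% and 65.9% GC.

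The Ikzf4 and Ikzf1 regions were narrow and lay at the lower edge of what was listed. The Ikzf4 region was 200 bp wide, at chr10:128646526-128646725. Its centre was 634 bp upstream of the most upstream GENCODE start of Ikzf4 (ENSMUSG00000002578.17), and it lay wholly in an intron of the non-coding gene Gm26876. RefSeq places 3 of its 8 Ikzf4 mRNAs at starts upstream of the region, the farthest 23046 bp from its centre, so that the region is intronic to Ikzf4 there. Its effect of 0.44 in the authors' deposited table was larger than that of 31 of the 12083 positive regions, and 99.0% of all listed regions had a smaller p. With an adjusted p of 0.0095 it was just inside the list, since the highest adjusted p in the authors' deposited table, rounded, was 0.01. Of 2226 other promoter regions of like GC content, 6.69% had a lower effect and 6.51% were negative.

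The Ikzf1 region was 150 bp wide, at chr11:11740651-11740800, inside an intron of Ikzf1 (ENSMUSG00000018654.17) and 54280 bp downstream of the nearest protein-coding start of the gene. Its width was below the size range of 200 to 400 bp that the labels give for both libraries. The region was the family's distal one. Its effect of 0.48 in the authors' deposited table was larger than that of 117 of the 12083 positive regions. Of 2083 other distal regions within 2.5 points of its GC content of 52.0%, 3.46% had a lower effect and 2.16% were negative. The start of the non-coding gene Gm12000 was closer to it, at 44286 bp, and it was given to Ikzf1 because only protein-coding starts competed. The 2046 listed regions of 200 bp or less had a median positive effect of 0.86, and wider regions one of 0.80. An adjusted p over 0.005 was given to 18.6% of the narrow regions and to 14.2% of all listed regions. The part of width in the Ikzf4 and Ikzf1 values was not tested.

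**Figure D3:**
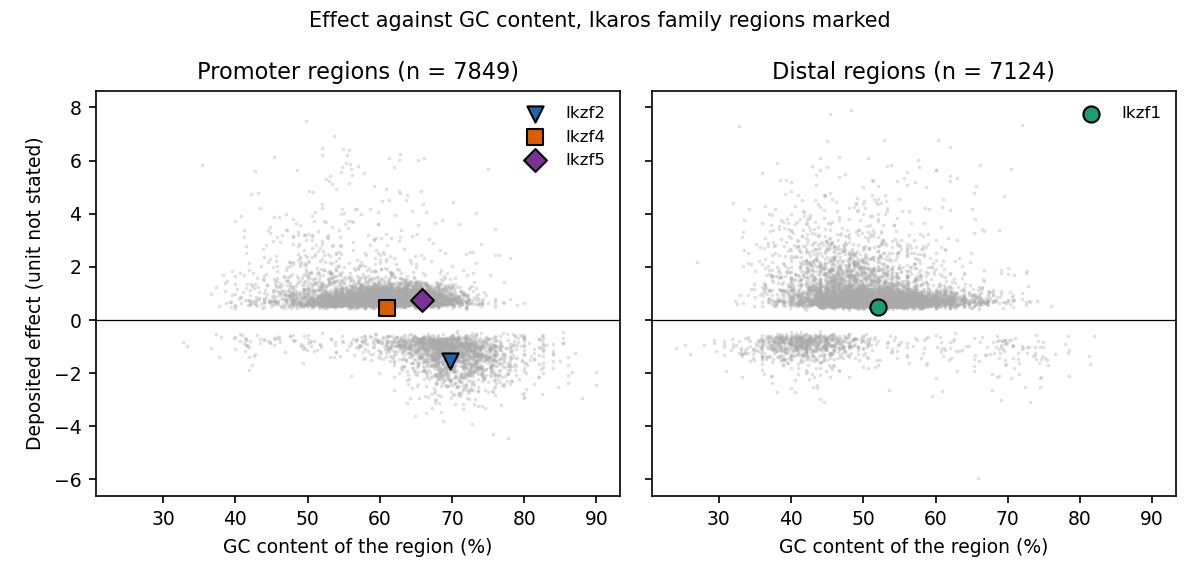
Deposited effect against GC content of the region (percent) for listed promoter regions (left) and distal regions (right), each grey point 1 region, with family regions as large symbols. Ikzf2 (69.7% GC) sits among the negative promoter regions at high GC, Ikzf5 (65.9%) and Ikzf4 (61.0%) in the positive band, and Ikzf1 (52.0%) at the bottom of the positive distal band.

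No promoter of Ikzf1 or Ikzf3 was listed. None of the 4 protein-coding starts of Ikzf1 was inside a listed region, although the 1 kb around them was 57.2% to 77.1% GC with CpG observed over expected of 0.943 to 0.979. The single protein-coding start of Ikzf3 (ENSMUSG00000018168.8) had 58.2% GC and a ratio of 0.909 around it and was not inside a listed region either. Among annotated starts of other genes within 2.5 points of the Ikzf3 start's GC content, 39.2% of 8267 were inside a listed region. For the 4 Ikzf1 starts the corresponding shares ran from 36.9% to 48.8%, and the shares inside a negative region were 1.73%, 16.5%, 17.2% and 46.3% in order of rising GC content. A start outside the list may have been untested, unmeasured or short of the authors' threshold, so these promoters have no level here. The 3 starts of Ikzf4 were not inside a listed region either. In all, 4 of the family's 15 starts were, namely all 3 of Ikzf5 and 1 of the 4 of Ikzf2. Over all 41469 annotated protein-coding starts the share was 27.8%. The 3 starts of Ikzf5 span 26 bp and lie in 1 region, so annotated starts are counted here and not separate promoters.

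Around Ikzf3 the nearest listed regions went to neighbouring genes. Within 100 kb of its start there were 4, all positive, with effects from 0.58 to 2.02 in the authors' deposited table. The nearest, 50400 bp upstream, and a second were given to Lrrc3c, and the highest was given to Gsdma3, a gasdermin gene. A region at chr11:98464376-98464825 was given to Grb7, an adaptor protein gene, with an effect of 0.63 in the authors' deposited table. It lay 76 bp beyond the end of Ikzf3 in GENCODE M21, while 216 bp of it fell inside the longer Ikzf3 of RefSeq. Whether this region bears on Ikzf3 or on Grb7 cannot be read from these data. Ikzf4 had 5 listed regions of other genes within 100 kb of a start, at the promoters of Zc3h10, Rpl41, Pa2g4, Rab5b and Cdk2, with effects from 0.53 to 1.00 in the authors' deposited table. The Ikzf4 value of 0.44 was below all 5. Ikzf5 had 2, given to Cuzd1 (0.70) and 2310057M21Rik (0.63) in the authors' deposited table. Ikzf1 and Ikzf2 had 0. All 11 neighbouring regions were positive, as were 80.7% of all listed regions, so that 14 of the 15 listed regions around family starts were positive.

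Consensus sequences were searched in the central 300 bp of every listed region, on both strands. This window takes in flanking sequence for the Ikzf1 and Ikzf4 regions, which are narrower. The Ikaros core TGGGAA was found in the Ikzf4 region alone among the family's windows, beside 17.0% of listed promoter windows and 19.7% of all listed windows. The whole Ikzf2 region held 1 further TGGGAA, at position -613 from the start and outside the central window. GGGCGG boxes were found 5 times at Ikzf2, where 2 neighbouring boxes overlap, and 3 times at Ikzf5. Over their whole length these regions, of opposite sign, held 7 boxes each. At least 1 box was found in 65.6% of listed promoter windows. Of promoter windows 5.43% held at least 5. This was also counted among promoter regions within 2.5 points of the GC content of the whole Ikzf2 region. Windows with at least 5 boxes made up 14.3% of 811 negative and 8.32% of 505 positive ones. The GC content of the windows themselves was not matched, and that of the Ikzf2 window was 80.3%. AP-1 (TGANTCA) was found at Ikzf5, in 4.89% of promoter windows, and NF-kB at Ikzf4, in 6.83%. NFY (CCAAT) was found at Ikzf4 and Ikzf1, in 32.5% of promoter and 31.3% of distal windows. The consensus sequences of ETS (CCGGAAG), RUNX (TGTGGT), CRE (TGACGTCA), the E-box (CACGTG), NRF1, NFAT (GGAAAA), STAT (TTCNNNGAA), IRF, TCF and LEF (CTTTGAT), factors of the GATA family with the letters AGATAA, T-box (AGGTGTGA), YY1 (AAGATGG) and CTCF matched none of the 4 central windows. The shares of promoter windows with these ran from 0.535% for T-box to 15.3% for NFAT. For distal windows, the class of the Ikzf1 region, they ran from 0.744% for NRF1 to 26.2% for RUNX. Outside the central windows, besides the TGGGAA and GGGCGG matches given above, the whole regions added YY1 at Ikzf2 and NFAT and STAT at Ikzf5. A match describes letters only and shows no binding.

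Genes of corepressors and remodellers linked to Ikaros proteins, and of the cereblon ligase, were described beside the family, from a list of 25. All are called partners here, although the treatments given above name no imide drug. Of the 25 genes, 20 had a listed region, beside 43.0% of all protein-coding genes. This background was not matched for GC content, with which listing differed. Within 2.5 points of 42.1% GC, 1.54% of annotated starts of genes outside the family were inside a listed region, and 48.3% within 2.5 points of 66.5%. The 20 genes had 33 regions in all, with 24 positive and 9 negative (72.7% positive, beside 80.7% of all listed regions). The median effect was 0.73 for the list and 0.73 for the whole table. The 16 genes of NuRD and other corepressors had 14 positive and 7 negative regions, the 4 genes of the BAF remodelling complex 6 and 1, and the 5 genes of the cereblon ligase 4 and 1. In the authors' deposited table the lowest effects belonged to Arid1a, a BAF subunit (-1.60, in a distal region), Gatad2a, a NuRD subunit (-1.48), and Mta3, another NuRD subunit (-1.10). In the authors' deposited table the highest belonged to Smarca4, the BAF ATPase (1.52, in a distal region 75 bp wide and 45349 bp from the start), Mbd3, a NuRD subunit (1.13, at the promoter), and Mta3 again (1.03, in a distal region). The negative Arid1a region was 1525 bp wide, at position -57119 from the nearest start of the gene. The other 3 regions of Arid1a were positive, its promoter region among them (0.87 in the authors' deposited table). Of the 20 partner promoter regions 7 were negative, beside 24.9% of all listed promoter regions. They lay at 6 genes, namely Ctbp1, Cul4a, Gatad2a, Hdac2, Mta1 and Mta3, at 62.7% to 75.1% GC, and the positive ones at 55.7% to 69.1% GC. Gatad2a had a positive promoter region as well (0.77 in the authors' deposited table). Hdac2, a deacetylase of NuRD, had 2 negative regions, and Hdac1, its paralogue, had 1 positive promoter region (0.77 in the authors' deposited table). Chd4, Mta2, Crbn, Ddb1 and Cul4b were given no listed region.

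**Figure D4:**
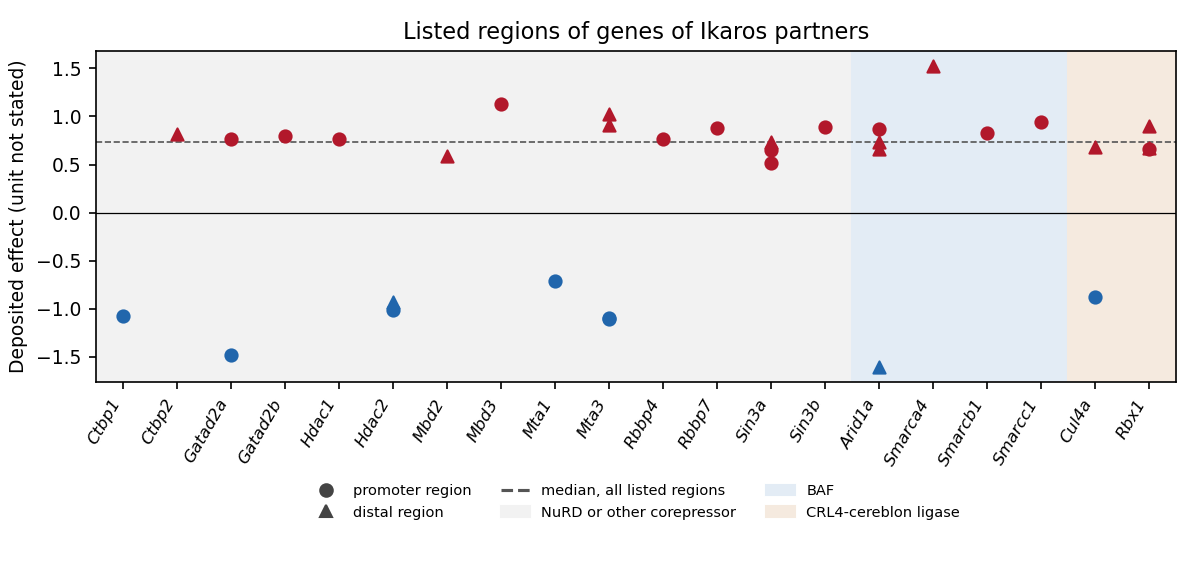
Deposited effects of the 33 listed regions of 20 genes of Ikaros partners, promoter regions as circles and distal regions as triangles, with the background shaded by complex and the median of all listed regions (0.73) as a dashed line. Positive regions (24) lie between 0.51 and 1.52, and the 9 negative ones between -1.60 and -0.71.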

How the data were processed

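The authors deposited 1 table of regions on mm10, derived per the file headers from the alignments of both output libraries together. Aligner, region caller, test and normalization were not stated there. Deposited per region were a score (the signed effect, of unstated scale and direction), a p-value, an adjusted p-value and a width in bp, with the columns identified from their values. The input library and signal tracks of single libraries were not used, and 21 regions on other scaffolds were left out. Starts came from GENCODE M21, the promoter class from starts of any biotype in its basic set, gene bodies also from RefSeq GRCm38.p6, and sequence from GRCm38, which is the mm10 build. Composition and consensus matches were computed with Python 3.11.15, pandas 2.3.3, numpy 2.4.6 and pysam 0.24.0. Wilson intervals came from statsmodels 0.14.6. Copies were counted with minimap2 2.31 (k = 19, w = 10), requiring 95% identity across 240 bp. The assignment was checked on simulated regions at isolated starts, and the consensus search on matches planted in windows of a single letter. Starts close to another start and GC-rich sequence were not covered by these checks. Named genes were all family regions, genes given listed regions within 100 kb of a family start, the 3 highest and 3 lowest partner regions, and the 3 promoters closest to Ikzf2 in effect at like GC content. Partner genes named for their counts or signs were chosen after their values were seen. The members and lists were chosen with earlier results of these data known. Alternatives were other distance limits, start sets, gene bodies, thresholds, merged regions, promoter windows and GC windows. The 2 replicates were not compared, since the table used here combines them and tracks of single libraries were not analysed here.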

Additional observations from a re-analysis of the deposited data

How the results depend on the processing

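Which regions count as the family's depended on the threshold and on how regions were given to genes. With an adjusted p under 0.001 the count was 2 (Ikzf2 and Ikzf5), of which 1 was positive, and with an absolute effect of at least 1 it was 1 (Ikzf2), of which 0 were positive. Shares of all listed regions at these limits are not given here, so these counts have no background. Over all listed regions the median positive effect was 0.80 and the median negative effect -1.07. A limit of 1 on the absolute effect therefore falls more heavily on positive regions. Taking every region within 100 kb of a family start, an alternative chosen after the data were seen, gave 15 regions, 14 of them positive. Limits of 50 and 20 kb, and starts of every biotype, each left out the Ikzf1 region and gave 3. Overlap with GENCODE gene bodies gave 3 and with RefSeq bodies, also chosen after the data were seen, 5, which added the Grb7 region at the end of Ikzf3. All GENCODE protein-coding transcripts, merging of neighbouring regions and RefSeq mRNA starts, the last chosen after the data were seen, gave 4. A promoter window of 500 bp left 2 promoter regions, without Ikzf4. The share of promoter regions of like GC content with a lower effect than Ikzf2 was 17.7%, 14.8% with GC within 5 points, 6.75% with no GC window and 23.7% among regions with an adjusted p under 0.001, and 17.6% with the narrower and with a wider promoter window. The 4 regions held 7 consensus matches, counted once per consensus and region, in central windows and 11 over their whole length. Depth is unknown, so no limit of detection can be given for unlisted promoters. No paired analysis was possible because the 1 table used here combines both replicates of 1 group, and for the same reason no replicate was left out. Tracks of single libraries were not analysed here.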
